A study of Mus musculus with 18 samples.

Results

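Fibroblasts of the mouse urinary bladder that carry transcripts of Inmt, Sult1e1 and Penk were examined in 7 single-cell libraries. A barcode was called a fibroblast when it held at least 500 unique molecular identifiers (UMIs, counted RNA molecules), with Dcn, Col1a1, Col1a2, Col3a1 and Lum together at 1% of them or more and Krt7, Krt8, Krt18 and Krt19 together under 0.5%. Members were chosen by measured values of 7 genes: a fibroblast was a member when the UMIs of Inmt, Sult1e1 and Penk summed to at least 3 and to at least 2 times those of Pi16 and Mfap5 and 2 times those of Car3 and Cxcl14. This gave 2355 members among 17779 fibroblasts of 35289 barcodes, and the other 15424 fibroblasts served as the comparison. Mirrored rules gave 4917 Pi16 and Mfap5 fibroblasts and 6858 Car3 and Cxcl14 fibroblasts, and fibroblasts outside all 3 rules are called ungated. The rule used 16 genes in all, whose values describe how cells were chosen and are given without a test.

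All mice were C57BL/6. Whole-bladder cells came from 2 all-male pools of 3 mice each, aged 22 and 3 months, and from mixed pools with 2 animals of either sex, aged 12 months (dissociated for 2 libraries) and 24 months. At 14 months a detrusor-only library came from 3 females. Another library, titled whole bladder (detrusor enriched), came from a mixed pool with 2 of either sex and is called detrusor-enriched. Both are grouped as detrusor libraries below, although the label of the detrusor-enriched library names whole bladder. The whole-bladder libraries are those of the other ages. The rule did not use the nuclei (a mixed 12-month pool), the 4 sections of male bladder (2 at 22 and 2 at 14 months) or the 6 bulk RNA libraries of 12-month females (3 from intact tissue and 3 from dissociated cells). Each cell library pools several mice, so the spread between libraries mixes mice, preparation and depth.

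Inmt encodes an amine N-methyltransferase, Sult1e1 the sulfotransferase that inactivates estrogens, and Penk the precursor of the enkephalin opioid peptides. Gpx3, named with them as a marker, encodes the secreted selenium-dependent glutathione peroxidase of extracellular fluid. Fibroblasts build the connective tissue of the lamina propria, the muscle septa and the adventitia. Pi16 is a marker of adventitial, progenitor-like fibroblasts of many organs, and Col15a1 marks fibroblasts of organ parenchyma.

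In the RefSeq annotation of GRCm38.p6, Inmt lies at chr6:55170627-55174990, Sult1e1 at chr5:87575968-87591611, Penk at chr4:4133536-4138815 and Gpx3 at chr11:54902854-54910387. Promoter windows were matched for 3 of these 4 markers, and the 250 bases before each start are printed 5′ to 3′ on the gene's strand because the description below turns on these genes. Capitals mark matches on either strand to the TATA-box letters TATAAA, the CCAAT-box letters CCAAT or a palindromic glucocorticoid response element, searched as GNACA and TGTNC with 3 bases between them; no printed matches overlap. The Inmt window is chr6:55174991-55175240 (minus strand), the Sult1e1 window chr5:87591612-87591861 (minus strand) and the Gpx3 window chr11:54902604-54902853 (plus strand).
Inmt: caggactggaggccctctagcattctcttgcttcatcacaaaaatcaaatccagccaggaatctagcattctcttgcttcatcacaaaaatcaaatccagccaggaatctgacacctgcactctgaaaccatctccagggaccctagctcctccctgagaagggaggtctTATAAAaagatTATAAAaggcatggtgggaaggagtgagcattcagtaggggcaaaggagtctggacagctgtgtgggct
Sult1e1: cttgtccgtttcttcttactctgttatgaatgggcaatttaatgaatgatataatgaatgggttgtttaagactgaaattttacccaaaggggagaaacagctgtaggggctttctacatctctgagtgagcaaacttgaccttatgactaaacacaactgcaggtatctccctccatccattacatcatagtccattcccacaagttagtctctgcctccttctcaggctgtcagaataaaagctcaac
Gpx3: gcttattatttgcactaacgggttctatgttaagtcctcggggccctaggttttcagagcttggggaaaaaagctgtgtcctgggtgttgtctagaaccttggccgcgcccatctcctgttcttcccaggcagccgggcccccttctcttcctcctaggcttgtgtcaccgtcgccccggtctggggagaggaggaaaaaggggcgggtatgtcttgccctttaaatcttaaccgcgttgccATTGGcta
The Inmt window held 2 TATAAA matches, whose first bases lay 80 and 69 bases before the start. The Gpx3 window held 1 CCAAT match on the opposite strand, 8 bases before the start, and the Sult1e1 window held none of the 3 sets of letters. Of 32851 RefSeq promoter windows of 250 bases, 12.4% held TATAAA, 33.8% held CCAAT and 0.387% held the palindrome. These matches describe letters only.

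Depth differed widely between libraries and was lower in members than in other fibroblasts of every library. Median UMIs of members ran from 1287 in the 3-month and 2019.5 in the 22-month library, through 4030 to 5379 in the 3 libraries of mixed sex, to 8435 in detrusor-only and 10822 in detrusor-enriched cells. Medians of other fibroblasts were 1710 and 2484.5, 5404.5 to 6141, and 9440 and 11479. The 2 male libraries shared 64 barcode sequences, and other pairs shared 0 to 15. Of fibroblast markers outside the rule, Dpt was found in 1473 of 2355 members and Pdgfra in 1297, and 0 of the list's 8 genes were at 0 UMIs over the members of any library.

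Members were present in all 7 libraries, and their share of fibroblasts was highest in the detrusor-only library. That library held 881 members among 3607 fibroblasts (24.4%, exact 95% binomial interval 23.0 to 25.9). The 3-month library held 464 of 3785 (12.3%, 11.2 to 13.3) and the 22-month library 696 of 6350 (10.96%, 10.2 to 11.8). The detrusor-enriched library held 242 of 2706 (8.94%, 7.89 to 10.1) and the 24-month library 53 of 761 (6.96%, 5.26 to 9.01). The lowest shares were in the 12-month libraries, with 7 of 141 (4.96%, 2.02 to 9.96) and 12 of 429 (2.80%, 1.45 to 4.84). These intervals cover counting error only.

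The mean share was 16.7% in the 2 detrusor and 7.59% in the 5 whole-bladder libraries, a difference of 9.09 points that did not pass (two-sided exact permutation test, p = 0.143; smallest possible 0.0476). With cells thinned to 2000 UMIs the difference was 10.7 points at p = 0.0476, the smallest that exact test can give. Thinning lowered the 3-month share to 2.69%, with 2631 of its 3785 fibroblasts too shallow to enter, and the 22-month share to 8.45% with 2220 left out. Thinned shares elsewhere were 3.03%, 5.67%, 6.70%, 9.59% and 22.5%, so the detrusor-only library was highest either way and the order of the others moved. Thinning to 1000 UMIs left out 575 fibroblasts at 3 months and 240 at 22 months. Shares were then 14.7% in detrusor-only and 5.94% in detrusor-enriched cells. Those of whole bladder were 11.1% at 3, 10.5% at 22, 3.03% and 4.26% at 12 and 5.65% at 24 months. The detrusor-enriched share thus lay within the whole-bladder range. Without the detrusor-only library the difference at full depth was 1.35 points. Car3 and Cxcl14 fibroblasts made up 1.16% of fibroblasts in the detrusor-only library (42 cells) and 29.8 to 63.3% in the others, so its larger member share stands beside a near absence of that group. The share was 8.96% in the 2 older (22 and 24 months) and 6.67% in the 3 younger whole-bladder libraries (exact permutation p = 0.6, smallest possible 0.1), a design that cannot pass.

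**Figure D1:**
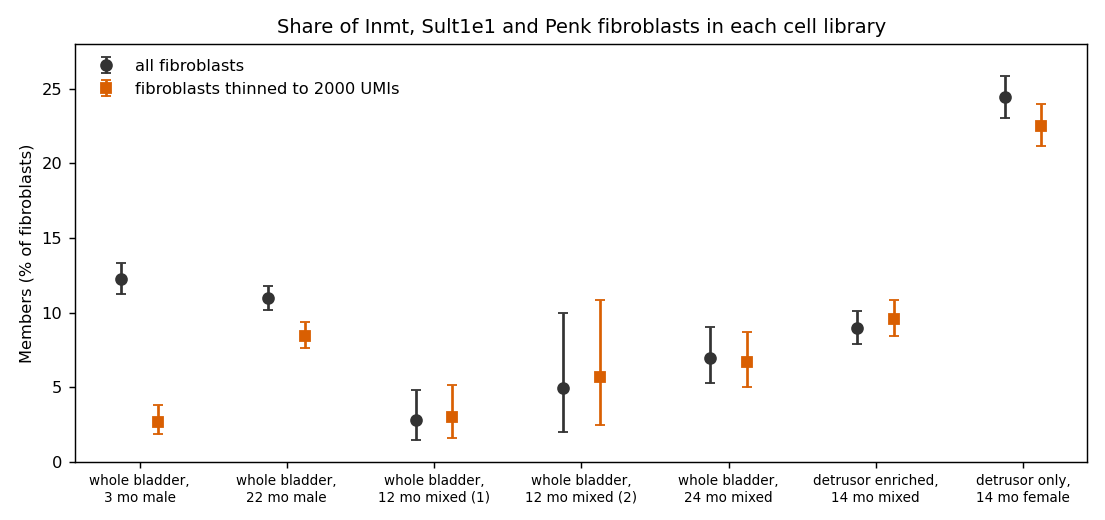
Share of members among fibroblasts (%, vertical axis) in each of the 7 cell libraries, with exact 95% binomial intervals, for all fibroblasts (circles) and for fibroblasts thinned to 2000 UMIs (squares). The detrusor-only library was highest with 24.4% and 22.5%, and the 3-month library moved most, from 12.3% to 2.69%.

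Inmt was the gene that nearly all members shared. It was detected in 98.3% of members of the 22-month, 99.4% of the 3-month, 100% of both 12-month and the 24-month, 99.2% of the detrusor-only and 98.8% of the detrusor-enriched library. Its summed level, in UMIs per 1000000 UMIs of the summed cells (CPM), was 5834, 9635, 2950, 1548, 3037, 2273 and 2098 in that order. The level was therefore highest in the 2 male libraries. Inmt was also widespread outside the members: other fibroblasts with a UMI made up 50.9 to 60.6% in 6 libraries and 88.9% in the detrusor-only library, at 461 to 1406 CPM. The detrusor-only library had the smallest ratio, 2273 against 1053 CPM. In low-matrix cells, barcodes with under 0.5% of their UMIs from the 5 matrix genes, 4.11 to 20.3% held an Inmt UMI, at median depths of 2512 to 16833 UMIs. Their Inmt level was also highest in the 2 male libraries, at 71.1 (22 months) and 56.5 CPM (3 months) against 2.19 to 18.1 CPM elsewhere. The high male level was thus not limited to members, and free RNA was not measured.

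Sult1e1 was present in a minority of members in 6 of 7 libraries. It was detected in 55.3% of members of the 22-month library, 30.4% of the 3-month, 25% and 28.6% of the 12-month, 13.2% of the 24-month, 11.8% of the detrusor-only and 39.7% of the detrusor-enriched library. Its level in members was 1895, 1051, 1064, 724, 418, 95.3 and 699 CPM, against 61.3, 42.9, 37.8, 16, 10.7, 14.3 and 12.6 CPM in other fibroblasts. The detrusor-only members were lowest by both measures. With cells thinned to 2000 UMIs and members chosen again by the rule, Sult1e1 was held by 64.8% (22 months), 48.4% (3 months, 31 members), 23.1% and 12.5% (12 months, 13 and 8 members), 13.7% (24 months), 7.68% (detrusor-only) and 32.9% (detrusor-enriched). The share in the low-matrix cells was 0.112 to 4.82%.

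Penk was detected in 67.5% of members of the 22-month library, 31.3% of the 3-month, 50% and 71.4% of the 12-month, 41.5% of the 24-month, 62.1% of the detrusor-only and 70.7% of the detrusor-enriched library. Its level was 1539, 943, 608, 442, 457, 249 and 382 CPM in members, against 51.7, 37.4, 25.1, 58.1, 18.9, 74.4 and 27.3 CPM in other fibroblasts. The 2 detrusor libraries therefore had a high share of cells with a UMI beside the lowest levels. In members chosen at 2000 UMIs per cell the share was 72.8% at 22 months, 58.1% at 3 months (31 members), 31.4% at 24 months (51 members), 33.3% in detrusor-only and 39.7% in detrusor-enriched members, and 53.8% and 37.5% in the 12-month libraries (13 and 8 members). All 3 genes were found together in 44.5% of members at 22 months, 36.0% in detrusor-enriched, 20.5% at 3 months and 10.6% in detrusor-only cells. Inmt alone accounted for 23.1%, 26.0%, 59.5% and 36.8% of members in those libraries.

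**Figure D2:**
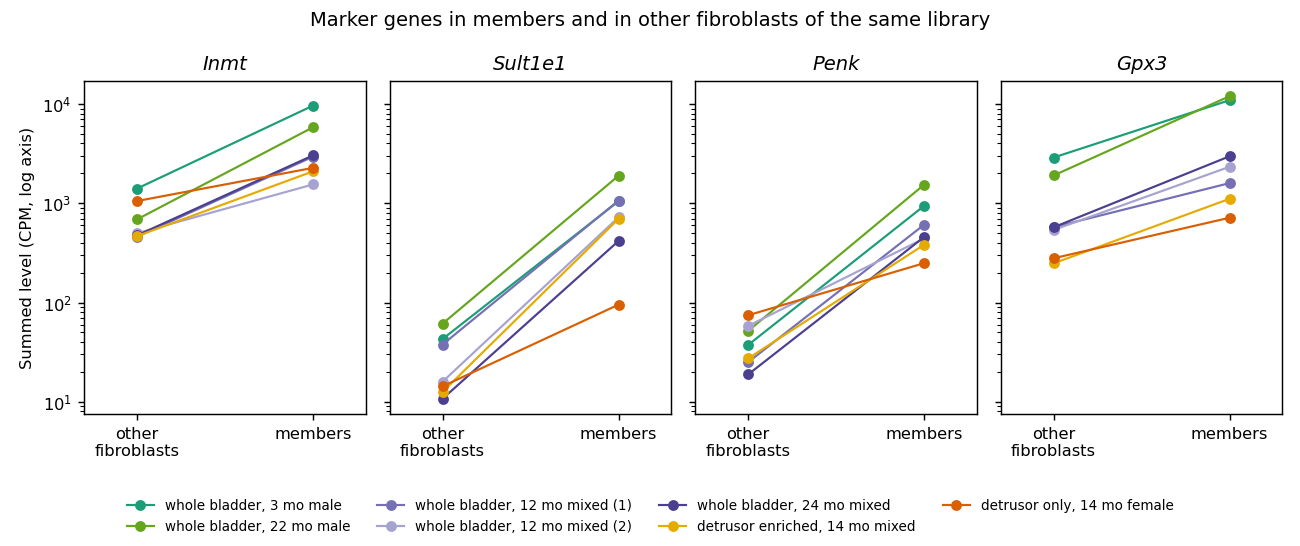
Summed level (CPM, log axis) of Inmt, Sult1e1, Penk and Gpx3 in other fibroblasts and in members, with 1 line for each of the 7 cell libraries. For the first 3 genes the choice of members sets the rise. The detrusor-only line for Sult1e1 ends lowest, at 95.3 CPM.

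Near the threshold the rule separated few cells. Exactly 3 UMIs of the 3 genes were held by 10 members at 22 months, 15 at 3 months, 0 in both 12-month libraries, 2 at 24 months, 10 in detrusor-only and 4 in detrusor-enriched cells. Fibroblasts with 2 such UMIs that met the other conditions numbered 15, 12, 2, 0, 2, 24 and 17. Gpx3 stood at 4030 CPM just inside and 6139 CPM just outside at 22 months, at 6509 and 5808 CPM at 3 months, at 516 and 2210 CPM at 24 months, at 501 and 181 CPM in detrusor-only and at 770 and 465 CPM in detrusor-enriched cells. The median member held 12 to 27 UMIs of the 3 genes, with 241 as the highest value. The larger group outside consisted of fibroblasts with 3 or more such UMIs that failed the 2-fold conditions, 2168 of them in the detrusor-only and 1424 in the 22-month library.

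Gpx3 was not used by the rule and was higher in members in every library. On the scale normalised for library composition, members stood at 13054, 10876, 1555, 3605, 935 and 1259 CPM in the 22-month, 3-month, the first 12-month, the 24-month, the detrusor-only and the detrusor-enriched library. Other fibroblasts of the same libraries stood at 1803, 2612, 693, 677, 350 and 269 CPM. Each member value lay above its own library's other fibroblasts, while the spread between libraries exceeded the difference within them. The log2 fold change was 2.04 (SE 0.21, adjusted p = 0.000699, edgeR quasi-likelihood with the library as a block). Gpx3 was named as a marker of these cells with results of the same libraries known, so this is no independent support. Car3 and Cxcl14 fibroblasts carried it too, with a UMI in 81.0 to 96.8% of cells.

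Members with a Sult1e1 UMI had more Gpx3 than members without one. Gpx3 stood at 15982 against 6029 CPM at 22 months (385 and 311 cells), 19045 against 6995 CPM at 3 months (141 and 323 cells), and 1759 against 562 CPM in the detrusor-enriched library (96 and 146 cells). It was higher with Sult1e1 in 7 of 7 libraries, by 2.18 to 5.55 times. Igf1, which encodes the insulin-like growth factor, stood at 1146 against 469, 548 against 115 and 749 against 102 CPM in the same 3 libraries, and at 578 against 189 CPM in detrusor-only cells (104 and 777 cells). Gdf10, a Bmp-family ligand, stood at 625 against 320, 410 against 55.0, 305 against 97.0 and 328 against 193 CPM in that order. Penk was higher in 6 of 7 libraries, while Inmt was higher in 4 of 7 and Apod in 4 of 7. The 12-month libraries had only 3 and 2 cells with a Sult1e1 UMI and the 24-month library 7, so the counts and ranges over 7 libraries rest there on few cells. The split was chosen after its values had been seen, and no test was made. Members with a Sult1e1 UMI were also deeper in every library (median 2184 against 1788 UMIs at 22 months, 8633.5 against 8422 in detrusor-only cells); the part of depth in the difference was not tested.

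**Figure D3:**
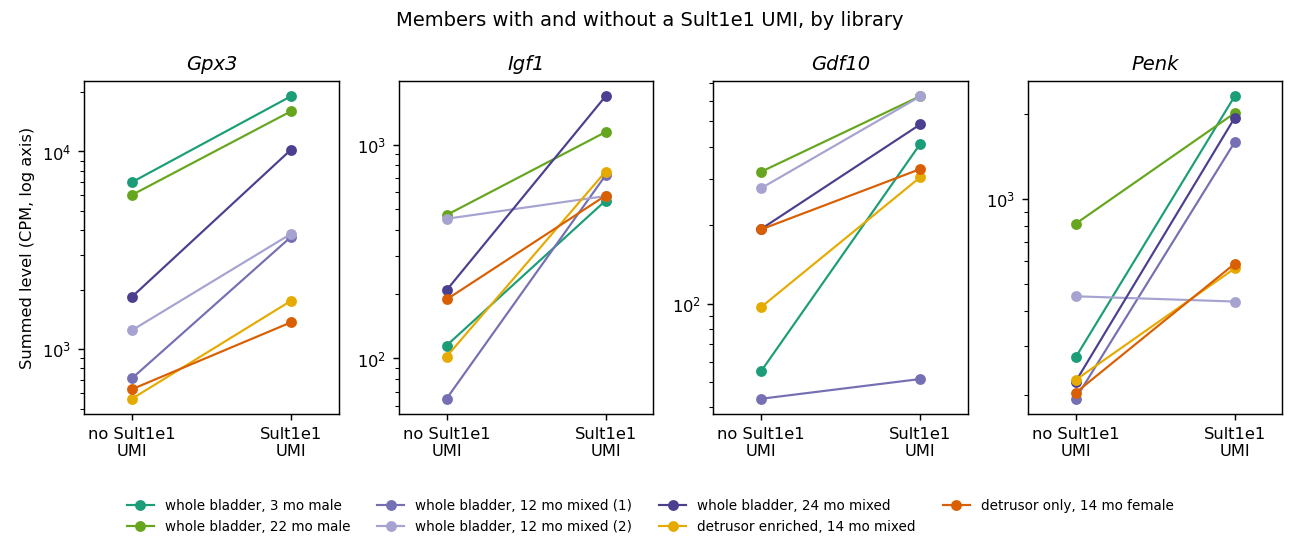
Summed level (CPM, log axis, own scale per panel) of Gpx3, Igf1, Gdf10 and Penk in members without and with a Sult1e1 UMI, 1 line for each of the 7 libraries. Gpx3, Igf1 and Gdf10 were higher with Sult1e1 in 7 of 7 libraries and Penk in 6 of 7.

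Across the transcriptome, members carried more RNA for the receptor gene Ntrk2 and for Igfbp3, and less for Aldh1a2, Notum and Bmp7. Counts were summed over members and over other fibroblasts of 6 libraries, since the second 12-month library had only 7 members. Of 12190 genes outside the rule, 1022 passed an adjusted p of 0.05 (8.38%; edgeR), 468 higher (3.84%) and 554 lower (4.54%) in members, around a median log2 difference of −0.04. The balance of directions depended on the setting, with 538 higher and 496 lower with RLE size factors, 654 and 559 with DESeq2, 348 and 245 at matched depth and 411 and 690 with no low-count filter. In the fit first given, 2.95% were higher and 10.1% lower in every library. The rule did not use the genes tested, but it chose the cells in the same libraries by 7 genes. Low Pi16, Mfap5, Car3 and Cxcl14 was a condition. Genes that vary with those 7 can differ through that choice. A gene lower in members can thus be one that goes with Car3 and Cxcl14 cells, which were 6858 of the 15424 other fibroblasts.

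The largest differences included secreted and receptor genes. Gdf10 stood at 547, 170, 44.4, 282, 273 and 218 CPM in members (22-month, 3-month, 12-month, 24-month, detrusor-only, detrusor-enriched) and at 25.9, 8.97, 12.0, 20.6, 118 and 16.6 CPM in other fibroblasts. Its log2 fold change was 3.38 (SE 0.58, adjusted p = 0.0269), higher in 6 of 6 libraries. Ntrk2, the receptor of brain-derived neurotrophic factor, was higher by 3.30 (SE 0.39, adjusted p = 0.00194), with 14.8 to 91.3 CPM in members and 2.59 to 19.0 CPM in other fibroblasts. Igf1 stood at 952, 255, 252, 495, 307 and 452 CPM in members against 64.3, 35.0, 62.4, 98.7, 182 and 46.0 CPM (2.58, SE 0.49, adjusted p = 0.0345). Igf1 was found in 46.7% of members, Gdf10 in 38.7% and Ntrk2 in 18.2%. The calls of Gdf10 and Igf1 were each lost in 9 of 19 alternative settings, among them leaving out any 1 of the 5 libraries other than detrusor-only, with the direction unchanged in all 19. That of Ntrk2 was lost in 1. Igfbp3, which binds insulin-like growth factors, was higher by 3.00 and Fst, which encodes the activin and Bmp antagonist follistatin, by 2.71.

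Several enzymes and carriers were higher as well. Apod, a lipid-binding apolipoprotein, stood at 892, 904, 267, 953, 1607 and 1257 CPM in members and at 80.6, 89.9, 62.8, 55.8, 1065 and 231 CPM in other fibroblasts (2.72, SE 0.55, adjusted p = 0.0439). The 5 libraries other than detrusor-only separated clearly, while detrusor-only other fibroblasts were themselves high. Ggt5, a gamma-glutamyltransferase, was higher by 2.95, Cp, the copper-binding ferroxidase ceruloplasmin, by 2.62, and Sult5a1, another sulfotransferase, by 2.58. Papss2, which makes the sulfate donor used by sulfotransferases, was higher by 2.29 (SE 0.25, adjusted p = 9.52e-05), with 31.9 to 60.9 CPM in members against 6.15 to 21.3 CPM. The call of Apod was lost in 11 of 19 settings and that of Fgl2 (2.50) in 12, with the same direction in each. The remaining named genes were Ifi205 (2.48), the prolactin receptor gene Prlr (2.46), the transcription factor Nfatc2 (2.28) and the homeobox gene Msx1 (2.12).

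Among lower genes, Aldh1a2, which makes retinoic acid, stood at 12.5, 9.62, 0, 0, 1.38 and 7.01 CPM in members and 154, 150, 90.2, 88.2, 18.1 and 155 CPM in other fibroblasts (−4.04, SE 0.21, adjusted p = 2.17e-09). Every member value lay below every value of other fibroblasts. Notum, an extracellular inhibitor of Wnt proteins, differed by −4.03 (SE 0.20, adjusted p = 2.17e-09), although detrusor-only cells of both groups were near 0 (0.172 and 0.530 CPM). Hhip, the hedgehog-binding antagonist, differed by −4.25 (SE 0.69, adjusted p = 0.0213), with 0 to 37.3 CPM in members and 4.19 to 496 CPM in others. Ptgs1, which encodes cyclooxygenase-1, stood at 0 to 22.4 against 22.2 to 190 CPM (−3.13). In the 12-month library 3 UMIs are 45.6 CPM, so a 0 there allows up to that level in its 12 members, by counting error alone.

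The other lower genes were Msln (−5.05), Bglap2 (−4.53), Col11a1 (−3.32), Wfdc1 (−3.27), Gatm (−3.21), Bmp7 (−3.17), Moxd1 (−3.14), Tspan13 (−2.99), Thsd4 (−2.82), Rerg (−2.79) and Serpinb6b (−2.57). Msln marks mesothelium, and 3 of 6 mesothelial genes were lower (Msln, Muc16 at −6.00 and Lrrn4 at −5.59). The summed level of the 6 was higher in members in 4 of 7 libraries (14.98 to 654 against 64.6 to 456 CPM). Gatm, an enzyme of creatine synthesis, showed almost no difference in the detrusor-only library (1.89 against 1.98 CPM) and a large one at 3 months (14.4 against 495 CPM).

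**Figure D4:**
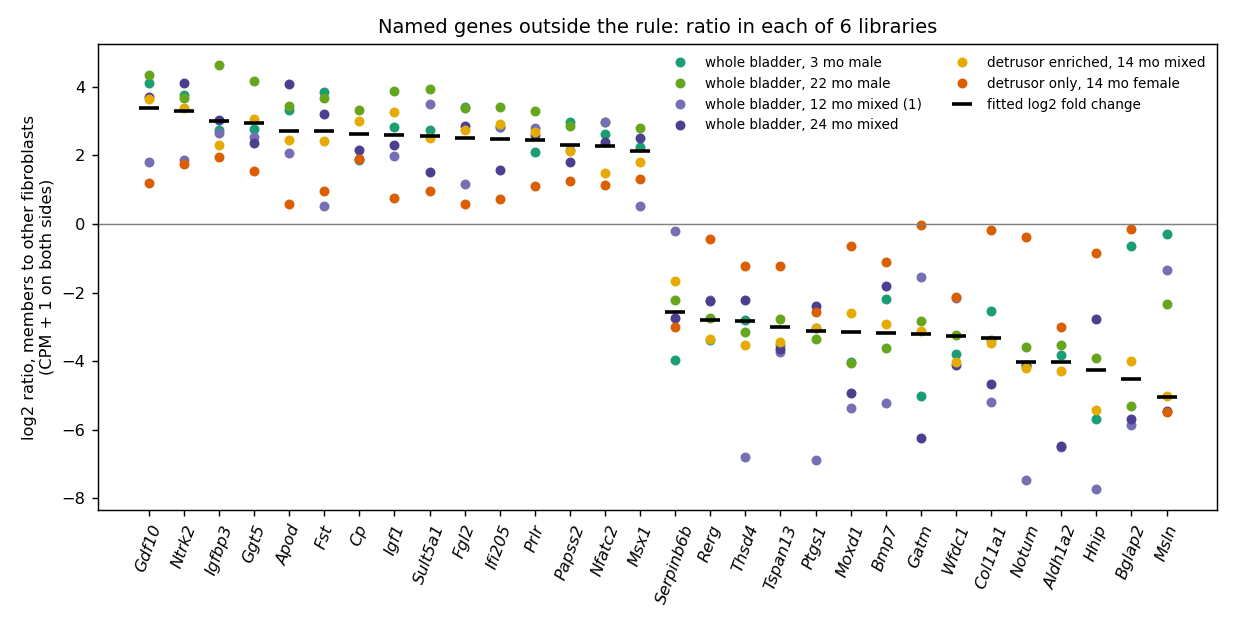
Log2 ratio of members to other fibroblasts in each of 6 libraries (points, from CPM + 1) and fitted log2 fold change (bars) for the 15 named genes that were higher and the 15 that were lower in members. The detrusor-only points of Apod (0.59) and Gatm lie near 0.

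The count of genes called depended on the libraries and on the comparison cells. It was 391 without the detrusor-enriched, 549 without the 22-month and 1878 without the detrusor-only library, 536 against ungated fibroblasts alone, 593 against others matched on depth, which were also cut to the number of members, and 102 without the library block; the 2 detrusor libraries alone gave 0 (1258 of 13229 at an unadjusted p under 0.05). Of the 30 named genes, 23 of 29 tested still passed against ungated fibroblasts, 26 of 30 at matched depth and 0 in the detrusor libraries alone. Of genes given here or below as different from other fibroblasts, the call of Col15a1 was kept in only 8 of 19 settings. The calls of Ogn and Prrx1 were lost in 9, of Ebf1, Fmo2, Myc and Gatm in 8 and of Errfi1, C7, Fst and Ifi205 in 7.

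Gene lists were then read against the background of 3.84% higher and 4.54% lower. The lists were chosen with results of these libraries known, so the counts are descriptions of each list. In the list of steroid receptors and glucocorticoid response genes, 6 of 15 were higher and 0 lower, among them Fkbp5 (1.81), Errfi1 (1.77), Zbtb16 (1.18), Sgk1 (0.86) and Klf15 (0.55), with a list median of 0.37. Fkbp5, a chaperone-binding protein induced by glucocorticoids, stood at 34.4 to 62.6 against 6.71 to 21.3 CPM, with no overlap between the groups. Without the detrusor-only library the count was 9 higher and 3 lower of 15, and against ungated fibroblasts 6 and 0 of 12.

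In the list of steroid, retinoid and xenobiotic metabolism genes, 6 of 43 were higher and 5 lower, with a median of 0.07. Beside Sult5a1, the higher ones included the monooxygenase gene Fmo2 (1.34), the aldehyde oxidase gene Aox3 (1.22) and the retinaldehyde dehydrogenase gene Aldh1a1 (1.02). The lower ones included Aldh1a2, the retinol dehydrogenase gene Rdh10 (−0.97) and Hsd17b11 (−0.97), so retinoid enzymes lay on both sides. Aldh1a1 stood at 190, 213, 14.8, 79.9, 128 and 170 CPM in members against 74.0, 78.8, 48.4, 50.2, 96.1 and 60.1 CPM; the 12-month library went the other way. Without the detrusor-only library 12 of 42 were higher and 7 lower; against ungated fibroblasts 2 and 2 of 41 passed.

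Among selenoproteins and antioxidants, 4 of 27 were higher and 6 lower (median −0.14). The metallothioneins Mt1 (1.92, SE 0.30, adjusted p = 0.0119) and Mt2 (2.00), which bind zinc and copper, were higher beside Gpx3 and Prdx4 (0.62). Mt1 stood at 6582, 4620, 4843, 4968, 2297 and 1850 CPM in members and at 847, 956, 2190, 1648, 1122 and 330 CPM in other fibroblasts. Nqo1 (−1.09), Prdx2, Prdx5, Prdx6, Gpx1 and Gpx4 were lower. Without the detrusor-only library the count was 6 and 5 of 27. In the list of opioid peptides, processing enzymes and receptors, Ace (2.29), the angiotensin-converting enzyme that also cleaves enkephalins, was the 1 gene called of 10 tested. Ace was higher in 5 of 6 libraries and not at 24 months (5.32 against 6.20 CPM).

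Among growth factors and their binding proteins, 8 of 32 were higher and 3 lower (median 0.34). Beside Igf1 and Igfbp3, Fgf10 (3.57, SE 0.62, adjusted p = 0.0127), a ligand of the epithelial receptor Fgfr2, stood at 30.2, 8.02, 0, 10.6, 23.0 and 44.7 CPM in members against 0.456 to 7.71 CPM. Angptl4 (1.61), which encodes an inhibitor of lipoprotein lipase, was higher too. Bdnf (−1.71), a ligand of the Ntrk2 receptor, was lower, with 0 to 13.1 CPM against 7.88 to 79.1 CPM. Without the detrusor-only library the count was 15 higher and 6 lower of 31, and against ungated fibroblasts 10 and 2 of 31.

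In the Wnt, Bmp and hedgehog list, 2 of 30 were higher (Fst and the Wnt antagonist gene Sfrp1 at 1.93) and 10 lower, and the median was −0.83. Bmp5 (−3.83), Bmp7 (−3.17), Bmp3 (−2.33) and Bmp2 (−1.72) were lower, as were Bmp4, Wnt2 (−1.54), Dkk3, Gli1 and Hhip. Bmp5 stood at 19.1, 20.8, 0, 16, 1.03 and 8.76 CPM in members and at 252, 245, 169, 198, 0.771 and 273 CPM in other fibroblasts. The detrusor-only library, with 42 Car3 and Cxcl14 cells, was near 0 for Bmp5 in both groups. Against ungated fibroblasts the count fell to 1 higher and 6 lower of 28, and without the 22-month library it was 0 and 4 of 30.

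In the lipid list, 8 of 26 were higher and 5 lower (median 0.24). Apoe stood at 11237, 7119, 2369, 4808, 2684 and 3370 CPM in members against 2222, 2555, 583, 833, 1035 and 705 CPM (2.00, SE 0.15, adjusted p = 4.69e-06). Lpl, which encodes lipoprotein lipase, was higher by 1.55 and the inducible cyclooxygenase gene Ptgs2 by 1.33, while Ptgs1 was lower. The Col15a1-type list had 5 of 12 higher and 0 lower: Steap4 (2.38), Gpx3, Lpl, Col15a1 (0.80) and Fbln1 (0.46). Col15a1 itself was higher in 4 of 6 libraries, and against ungated fibroblasts its value was −0.0047. Of 20 universal adventitial genes 0 passed in either direction (median −0.25); against ungated fibroblasts 6 of 19 were lower.

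Matrix genes were mixed. Among small leucine-rich proteoglycans outside the rule, Aspn (1.93), Ogn (1.73), Ecm2 (1.68) and Fmod (0.66) were higher and Prelp (−0.66) and Bgn (−0.46) lower, of 9 tested. Ogn stood at 683, 401, 459, 362, 835 and 739 CPM in members against 110, 79.7, 145, 141, 677 and 186 CPM. In the interstitial matrix list 2 of 26 were higher and 4 lower, the lower ones including the proteoglycan gene Vcan (−1.79) and the fibronectin gene Fn1 (−1.69). Fn1 was lower in each library, at 68.9 to 193 against 229 to 677 CPM. Basement membrane genes split 2 and 2 of 17.

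Among positional and mesenchymal transcription factors 8 of 38 were higher, including Osr2 (2.78), Ebf3 (2.20), Prrx1 (1.93) and Ebf1 (1.93), and 2 lower (Pitx1 at −1.25 and Hoxa10 at −0.66). Ebf1 stood at 148 to 392 CPM in members and 17.2 to 245 CPM in others. Chemokines and cytokines had 2 of 22 higher and 1 lower, complement 1 and 1 of 13 (C7 higher, 1.97), bladder interstitial cell genes 1 and 1 of 14, and axon contact genes 4 and 5 of 23. The eotaxin gene Ccl11 had a log2 difference of 1.89 that did not pass (adjusted p = 0.0715). In the dissociation response list 9 of 32 were higher and 1 lower: Myc (1.56) and Egr1 (0.83) led. The summed level of that list was higher in members in 7 of 7 libraries (32809 to 52540 against 23841 to 40786 CPM), and its part in the differences above was not tested.

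**Figure D5:**
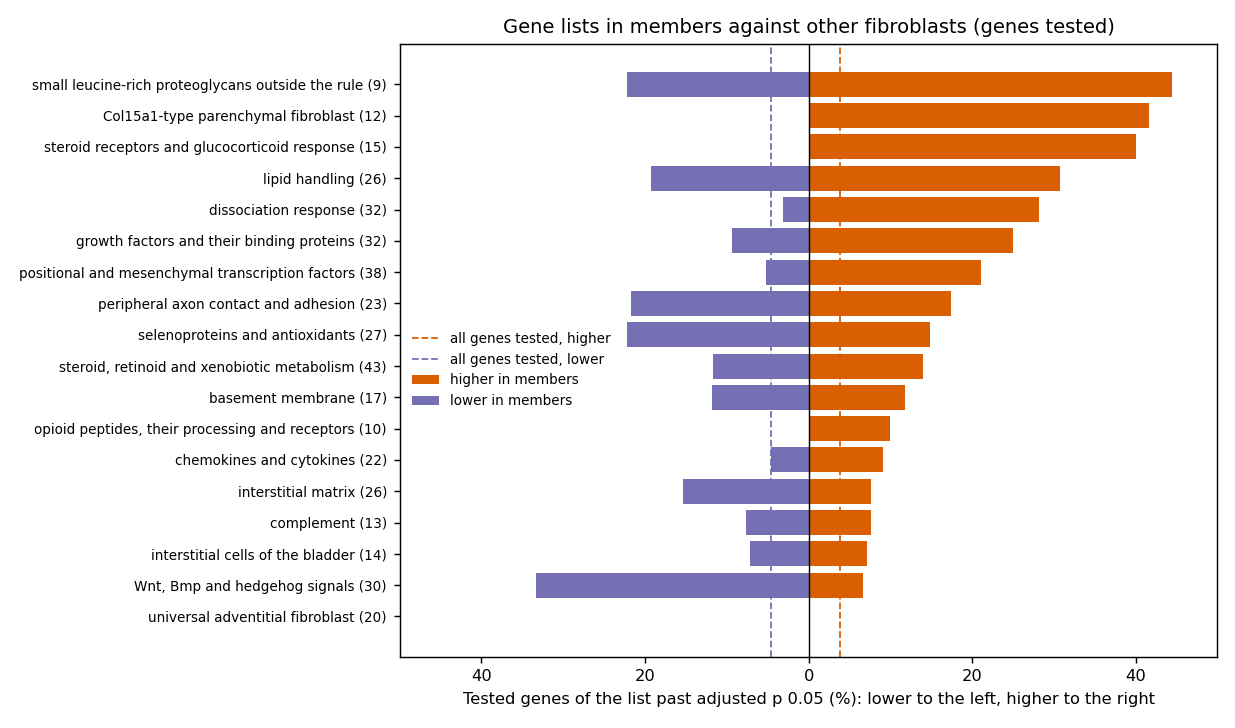
Share of tested genes of each list (number in brackets) that passed an adjusted p of 0.05, lower in members to the left and higher to the right (%), with dashed lines for all genes tested (4.54% lower, 3.84% higher). Steroid receptors and glucocorticoid response (6 of 15 higher) and Wnt, Bmp and hedgehog signals (10 of 30 lower) lean in opposite directions, and 0 of 20 universal adventitial genes passed.

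Markers of other cells were present in members and not all equal between the groups. The dendritic sum was 52.2 to 4269 CPM in members and 107 to 3319 CPM in other fibroblasts, higher in members in 3 of 7 libraries, with Cd74 in 768 members. The blood endothelial sum was higher in members in 7 of 7 libraries (39.6 to 117 against 12.6 to 62.3 CPM), with Kdr (2.26), Flt1 (1.94) and Emcn (1.72) called of 8. Flt1 had a UMI in 268 and Kdr in 188 members, while the defining markers Pecam1 and Cdh5 had one in 58 and 17 members and were not called. The pericyte sum was 15.2 to 124 against 12.5 to 79.5 CPM, with Abcc9 (2.39; 538 members) and Vtn (2.24; 19 members) called of 7 tested and Rgs5 in 27 members. The macrophage sum was 45.6 to 1297 against 41.0 to 638 CPM and C1qa (0.67) was called. Smooth muscle (91.2 to 1134 against 303 to 2759 CPM) and urothelial sums were lower in members in 7 of 7 libraries, with 0 of 9 and 0 of 7 genes called. The neuronal sum was 50.1 to 274 against 82.2 to 341 CPM and higher in members in 1 of 7 libraries, although Prph (2.09) and Tubb3 (2.08) were called higher of 4 tested; Stmn2 was found in 199 and Uchl1 in 190 members, and Snap25 and Elavl4 in 0. The skeletal muscle gene Actn3 was called of 5. The part of these markers in the results was not tested.

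Against Pi16 and Mfap5 fibroblasts, members had more RNA of Gpx3, Ntrk2 and Ggt5. Of 10440 genes 1316 passed (12.6%; edgeR), 642 higher (6.15%) and 674 lower (6.46%); 4.02% were higher and 9.13% lower in every library. Mmp3, which encodes stromelysin-1, stood at 73.1, 71.2, 265, 169, 24.4 and 17.0 CPM in members against 3.20, 2.67, 1.16, 10.2, 6.73 and 0.675 CPM (3.64, SE 0.61, adjusted p = 0.0161), with no overlap. Few members carried it: 70 of 2355 held an Mmp3 UMI (2.97%), and at 12 months all 18 UMIs came from 1 member and at 24 months 29 of 31 from 1. Gpx3, found in 86.9% of members, was higher by 3.09, Ntrk2 by 3.07, Ggt5 by 3.06, Gdf10 by 3.01 and Steap4 by 2.85. The call of Gdf10 was lost in 5 of 14 settings and that of Mmp3 in 4 of 14. Krtdap, first described in keratinocytes, stood at 28.5 to 125 against 161 to 854 CPM (−2.87, SE 0.15, adjusted p = 2.76e-10), with no overlap. Bglap2 (−6.19), Dmkn (−3.61), Dact2 (−3.42), Akr1c18 (−3.17) and Pex5l (−2.94) were lower. Akr1c18 stood at 203 CPM in Pi16 and Mfap5 cells at 3 months and at 0.506 to 29.0 CPM in those of the other libraries.

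Of 20 universal adventitial genes 17 were lower in members than in Pi16 and Mfap5 fibroblasts, among them Igfbp5 (−2.14), the complement inhibitor gene Cd55 (−1.57) and the progenitor marker Cd34 (−0.83), with a median of −1.25. The comparison cells were chosen for Pi16, itself an adventitial marker, and members for low Pi16 and Mfap5. These lower values can follow from that choice of cells and are no separate evidence about members. Growth factors had 13 of 31 higher and 3 lower, and steroid receptor and glucocorticoid response genes 8 of 12 higher and 0 lower. Of 32 dissociation response genes 19 were higher and 0 lower, including Egr1 (0.93) and Fos (0.59), and the markers Kdr, Flt1 and Emcn were 3 of 7 blood endothelial genes higher. Of smooth muscle markers 3 of 9 (Lmod1, Synpo2 and Myh11; median 0.77) and of pericyte markers 2 of 4 (Abcc9 and Kcnj8; median 1.08) were higher too, as were Cd68, Prph and Actn3, while 3 of 6 mesothelial genes, Stmn2, Uchl1 and Mbp were lower. The part of these genes in the lists was not tested. The number of all genes called was 729 without the detrusor-enriched library, 644 after thinning to 2000 UMIs and 27 without the library block. Members enter both this and the next comparison.

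Against Car3 and Cxcl14 fibroblasts, 8 of 19 chemokine and cytokine genes outside the rule were higher in members, as were Gdf10, C7 and Aldh1a3. Of 11145 genes 1139 passed (10.2%; edgeR), 631 higher (5.66%) and 508 lower (4.56%); 5.33% were higher and 8.21% lower in every library. Ccl11, which attracts eosinophils, stood at 395, 327, 829, 327, 214 and 220 CPM in members against 7.79, 2.83, 4.11, 4.42, 3.53 and 2.26 CPM (6.42, SE 0.26, adjusted p = 1.67e-07), with no overlap. It was found in 660 of 2355 members, in 14.2% at 3 months and 40.9% in the detrusor-only library, and at 12 months 52 of its 55 UMIs came from 1 member. Aldh1a3, another retinaldehyde dehydrogenase, stood at 106 to 180 against 0.553 to 10.6 CPM (5.70, SE 0.42, adjusted p = 5.10e-05). Gdf10 (6.25), Mmp3 (6.05), the complement component gene C7 (5.75) and Myoc (5.41) were higher. Palmd (−6.32), the potassium channel gene Kcnb2 (−5.84), Cyp2s1 (−5.77), Unc13c (−5.55) and Bmp5 (−4.40) were lower. Palmd stood at 188 CPM in the 42 Car3 and Cxcl14 cells of the detrusor-only library and at 0.405 to 7.29 CPM in those of the other libraries. Aldh1a2 was lower too, at 0 to 12.7 against 164 to 257 CPM (−5.29). The 2 retinoid enzyme genes therefore differed in opposite directions.

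Chemokines and cytokines had 8 of 19 higher and 0 lower in members than in Car3 and Cxcl14 fibroblasts (median 1.93), including Ccl11, Cxcl13 (4.59) and Cxcl12 (1.98). Cxcl14, itself a chemokine gene, is not in that list. The comparison cells were chosen for high and members for low Car3 and Cxcl14, and genes that vary with these can differ through that choice. Beside them 6 of 32 dissociation response genes were higher and 0 lower (Myc, Klf6, Egr1, Dusp1, Fos and Zfp36; median 0.39). Of markers of other cells, the pericyte genes Vtn and Abcc9, the endothelial genes Emcn and Ccl21a and the muscle gene Des were higher, and Acta2, Tagln and the mesothelial gene Muc16 lower. The part of these genes in the lists was not tested. Of 15 steroid receptor and glucocorticoid response genes 5 were higher and 2 lower, the estrogen receptor gene Esr1 (−2.58, at a mean of 4.24 against 35.3 CPM, lower in 6 of 6 libraries) and the progesterone receptor gene Pgr (−2.47). Universal adventitial genes had 6 of 18 higher and 0 lower, among them Clec3b (5.40) and Cd34 (3.62), and the Wnt, Bmp and hedgehog list had 2 of 30 higher and 10 lower. Gpx3 was higher by 1.76 (SE 0.25, adjusted p = 0.00151). The detrusor-only library had 42 Car3 and Cxcl14 cells, and 2538 genes passed without it. The count was 523 without the detrusor-enriched, 632 without the 22-month, 752 without the 24-month and 748 without the 3-month library, and 395 without the library block.

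With age, members of the 22- and 24-month libraries had more RNA for collagen VI genes than members of the 3-month and the first 12-month library. Of 5259 genes 43 passed (0.818%; edgeR, adjusted for all-male against mixed pools), 30 higher (0.57%) and 13 lower (0.247%) in the older libraries. Col6a3 stood at 261 and 138 CPM at 22 and 24 months and at 30.5 and 17.4 CPM at 3 and 12 months (3.08, SE 0.48, adjusted p = 6.09e-07). The B-cell attracting chemokine gene Cxcl13 stood at 748 and 132 against 107 and 0 CPM (2.95, SE 0.43, adjusted p = 5.01e-08). Col6a5 (2.95), Cd52 (2.63) and Col15a1 (2.33) were also higher without overlap, and Igf1 (1.49) stood at 900 and 535 against 242 and 296 CPM. At 12 months Col6a5, Cd52 and Col15a1 stood at 0, 0 and 34.8 CPM. These values, and those of Col6a3 and Cxcl13 there, lay under the 45.6 CPM that 3 UMIs make in its 12 members. With 34.5 CPM each at 24 months, Col6a5 and Cd52 are not resolved between the 2 mixed libraries. Dmkn (−3.15), Cdo1 (−2.10), Cpne8 (−1.93), Emc4 (−1.65) and Wnt2 (−1.25) were lower.

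Of 24 interstitial matrix genes 7 were higher with age and 0 lower: Col6a3, Eln (2.38), Postn (2.28), Col5a2 (1.81), Col6a2 (1.80), Col6a1 (1.52) and Mfap4 (1.37), with a list median of 0.80. For Eln and Postn this rested on the male libraries: Eln stood at 325 and 44.2 CPM at 22 and 3 months but at 69.1 and 69.7 CPM at 24 and 12 months, and Postn at 182 and 27.4 but at 51.8 and 52.3 CPM. Gpx3 did not pass (0.66, SE 0.31, adjusted p = 0.624). Groups did not overlap for 1321 genes (25.1%), as 2 libraries stood against 2. The older libraries also held more of the macrophage marker Lyz2 (1.45) and the smooth muscle marker Tagln (2.06) in members, and the part of those cells was not tested. The fit estimated a baseline, a pool term and an age term from 4 libraries, the fewest that allow it. The spread of any single gene was therefore barely measured, and the 12-month library had 12 members. DESeq2 called 0 genes (41 at an unadjusted p under 0.05), and 0 passed without the pool term (47 unadjusted) or after thinning (70 unadjusted).

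Members of the 2 detrusor libraries differed from those of the 4 whole-bladder libraries in basement membrane and smooth muscle genes. Of 9042 genes 1432 passed (15.8%; edgeR), 1051 higher (11.6%) and 381 lower (4.21%) in detrusor members. Of 15 basement membrane genes 9 were higher and 0 lower (median 1.26): the collagen IV gene Col4a1 stood at 282 and 253 CPM in detrusor-only and detrusor-enriched members and at 73.1, 40.1, 15.2 and 82.8 CPM in the whole-bladder libraries (2.21, SE 0.40, adjusted p = 0.00512). Col4a5 (2.18), Col15a1 (1.92), Col4a2 (1.91), Lama2 (1.51) and Lamb1 (1.33) were among them. Hoxa13, a homeobox gene of the caudal body, stood at 56.0 and 46.4 against 0 to 11.5 CPM (2.32). Mt1 (−1.36), Mt2 (−2.14), the chemokine gene Ccl2 (−2.03) and Ly6a (−1.30) were lower. Gpx3 stood at 898 and 1256 against 1597 to 12697 CPM without passing (−2.74, SE 0.88, adjusted p = 0.0732). In some alternative settings Gpx3 passed and in others not, and it was lower in detrusor members in each.

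Of 9 smooth muscle markers 6 were higher in detrusor members, including Myh11 (211 and 87.9 against 0 to 7.88 CPM) and Cnn1, beside which the matrix differences stand; the part of muscle RNA in them was not tested. The erythroid genes had 3 of 4 higher, and the immune markers Cd3g and Cd209a were lower. Gene lists of the deposited tables, sex, age, tissue and depth differ together between these libraries and cannot be told apart. Median UMIs of members were 8435 and 10822 in the detrusor libraries and 1287 to 4850.5 in the fitted whole-bladder libraries. With cells thinned to 2000 UMIs, 326 of 4854 genes passed (edgeR). Mia2, Jdp2, Atn1 and Bmp6 had 0 UMIs in members of all 4 whole-bladder libraries, and Atp5o and Fdx1l 0 in both detrusor libraries, so no fold is given. These genes, and Lnpep, Tonsl and Hgs, were at 0 or low over all barcodes of the same libraries: Atn1 had 0 UMIs in each whole-bladder library and 804 and 2047 in the detrusor libraries, and Atp5o 4296 to 11527 UMIs against 0. Whether their reads were counted under another symbol, or to another gene model, was not tested, and these calls are not read as a difference of the members. Jchain, which encodes the joining chain of immunoglobulins, was lower (0.495 and 0.875 against 20.1 to 167 CPM). Over all barcodes Jchain had 3365 and 1829 UMIs in the detrusor libraries. The whole-bladder libraries, each with fewer UMIs in total, had 2029 to 27161. Whether its member values follow the whole library was not tested, and this call is not read as a difference of the members either. Groups did not overlap for 3197 genes (35.4%). The count was 293 without the detrusor-enriched, 74 without the detrusor-only, 387 without the 22-month, 803 without the 3-month and 2576 without the 24-month library, 419 against the mixed-sex libraries alone and 724 with DESeq2.

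Interaction fits asked whether these differences were larger or smaller in members than in the other fibroblasts of the same libraries. For age, 8 of 10598 genes passed (0.0755%; edgeR; 0.0472% with a larger and 0.0283% with a smaller value in members), and for detrusor against whole bladder 5 of 12190 (0.041%). Col6a3 stood at 285, 33.3, 15.5 and 137 CPM in members at 22, 3, 12 and 24 months, against 439, 226, 425 and 320 CPM in other fibroblasts (interaction 2.22, SE 0.47, adjusted p = 0.00446). The member values separated by age and the others did not. Actg2, a smooth muscle actin gene, stood at 164 and 57.0 CPM in detrusor members against 142 and 95.9 CPM in other detrusor fibroblasts, but at 0 to 27.2 against 16.9 to 392 CPM in whole bladder (interaction 3.58, SE 0.39, adjusted p = 3.06e-05). Its member values at 3, 12 and 24 months (1.60, 0 and 5.32 CPM) lay under the level of 3 UMIs there (4.83, 45.6 and 13.2 CPM). Gpx3 did not pass either test (1.01, adjusted p = 0.535, and −0.34, adjusted p = 1). For age DESeq2 called 0 genes (110 at an unadjusted p under 0.05). The age count was 3 without the 22-month, 4 without the 24-month, 33 without the 12-month and 55 without the 3-month library. The detrusor count was 445 without the detrusor-enriched, 24 without the detrusor-only, 15 without the 22-month, 16 without the 24-month and 9 without the 3-month library.

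By the same rule, the nuclei library held 9 members among 308 fibroblast-type nuclei (2.92%, exact 95% interval 1.34 to 5.47), at a median of 948 UMIs. Inmt was found in 88.9% of them (2282 CPM, against 448 CPM in the other nuclei), Penk in 33.3% (365 CPM) and Sult1e1 in 11.1% (183 CPM). Gpx3 stood at 365 CPM against 84.9 CPM, on 4 UMIs. With 1 library no test was made, and 3 UMIs are 274 CPM in these 9 nuclei.

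In bulk RNA, which the rule did not use, Inmt, Penk and Gpx3 were higher in dissociated cells than in intact bladder. Inmt stood at 164, 149 and 175 CPM in intact and 423, 354 and 322 CPM in dissociated libraries (1.17, SE 0.12, adjusted p = 0.000145, edgeR), without overlap. Penk stood at 13.5, 7.51 and 16.8 against 34.9, 38.6 and 31.4 CPM (1.49, SE 0.27, adjusted p = 0.00229), and Gpx3 at 123, 105 and 135 against 235, 219 and 166 CPM (0.77, SE 0.15, adjusted p = 0.00291). Sult1e1 had 0 to 2 reads per library, below the filter. Its highest member level in the cell libraries, 1895 CPM, came from an all-male pool, while the bulk libraries came from females of another age. Members of the all-female detrusor-only library had the lowest level. Members were also only a part of the cells of each library, so bulk and member levels of Sult1e1 are not directly comparable. More cells of a type and more RNA per cell cannot be told apart in bulk samples. Of 16538 genes 59.2% passed, 27.9% higher and 31.3% lower, and groups did not overlap for 67.2%.

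The 15 named genes that were higher in members were all higher in dissociated bulk, with a median of 1.28 against −0.03 over all genes; of the 15 lower in members, 7 were higher, 2 lower and 6 not called. Gdf10 stood at 37.4, 24.3 and 34.5 CPM intact and 112, 103 and 53.4 CPM dissociated (1.49), and Hhip, lower in members, at 49.5, 46.2 and 45.9 against 170, 96.9 and 178 CPM (1.65). All 8 fibroblast markers outside the rule were also higher in dissociated bulk and all 10 smooth muscle markers lower. The dissociation response list was higher in 32 of 32 genes (median 3.46), as were the 8 macrophage, 6 dendritic, 5 lymphatic and 5 erythroid markers tested. The part of these genes in the values above was not tested.

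In the 4 sections, Inmt was found in most spots and Sult1e1 in few. A spot covers several cells. Inmt had a UMI in 98.4% and 81.3% of spots at 22 months and in 98.4% and 93.9% at 14 months, Penk in 21.9%, 24.6%, 33.4% and 28.8%, and Sult1e1 in 4.94%, 1.73%, 6.30% and 4.19%. Summed section levels, not scaled by TMM, were for Inmt 311 and 159 CPM at 22 and 400 and 287 CPM at 14 months (−0.50, adjusted p = 0.564, edgeR), and for Gpx3 306 and 229 against 496 and 453 CPM (−0.77, adjusted p = 0.121). Penk (12.9 and 15.8 against 21.5 and 20.6 CPM summed; −0.49, adjusted p = 0.215) and Sult1e1 (2.65 and 1.28 against 4.00 and 3.22 CPM summed; −0.80, adjusted p = 0.342) did not pass either. Of 14974 genes 0 passed (0%; 2481 at an unadjusted p under 0.05; 420 with DESeq2; 256 without the first 22-month section), while groups did not overlap for 51.6%. The 15 named genes higher in members had a section median of −0.68 and the 15 lower ones one of 0.35, and 0 of 30 passed.

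Across spots, the share of UMIs from the 3 genes varied with Gpx3 (Spearman's rho 0.47 to 0.63 per section), with the Pi16 and Mfap5 pair (0.42 to 0.57) and with fibroblast markers outside the rule (0.39 to 0.55). The values were 0.49 to 0.63 for macrophage, 0.35 to 0.41 for smooth muscle, −0.33 to 0.19 for Car3 and Cxcl14, −0.53 to −0.34 for urothelial and −0.57 to −0.38 for mesothelial genes. The urothelial and mesothelial lists share the gene Upk1b, so their values are not separate. These rest on 937 to 1317 spots of 1 section each, which share their depth and their neighbours, and carry no p. With Inmt in most spots, the sum follows Inmt more than Sult1e1 or Penk.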

How the data were processed

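Transcript counts were analysed from 7 single-cell libraries, 1 library of nuclei and 4 sections (UMIs per gene and barcode or spot) and from 6 bulk libraries (reads per gene). The deposited counts are whole numbers and not normalised. Per the submitters' processing notes, Cell Ranger, Space Ranger, bcl2fastq, Subread, featureCounts and mm10 were used; their roles and versions are not given in the sources used here. Totals were 23083752 to 68760791 reads per bulk library and 13281422 to 55374101 UMIs per cell library.

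Members were found by the stated rule, and members and gene lists were chosen with earlier results of these data known. Mitochondrial genes (listed at 0 in the 2 male tables) and the rule's 16 genes were left out of the fits, which used genes common to all cell tables (26336). Counts were summed per library and cell group where at least 10 cells were present, so the second 12-month library entered no fit. They were tested with edgeR 4.0.16 (R 4.3.3; TMM, filterByExpr, robust quasi-likelihood, two-sided, Benjamini-Hochberg at 0.05), with the library as a block between cell groups of the same libraries. Standard errors (SE) were recovered as the log2 fold change over the root of its F statistic. The fit was checked on simulated counts. Levels are CPM scaled by TMM unless called summed. Shares were compared by exact permutation tests (scipy 1.17.1). Most groups are single libraries, so p-values measure the spread between these libraries only. No doublets were removed in the values given; removal of the top Scrublet scores (scanpy 1.11.5, 0.8% per 1000 barcodes) was an alternative, as were DESeq2 1.42.0, RLE size factors, no low-count filter, thinning to 2000 UMIs, depth-matched comparison cells, a mitochondrial limit of 20%, at least 5 UMIs of the 3 genes and leaving out each library.

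Named genes in the comparison with other fibroblasts had an adjusted p under 0.05, the same sign in every library and at least 30 CPM in the higher group; the 15 largest rises and 15 largest falls were taken (6 and 6 for the 2 other cell groups, up to 5 and 5 for age, detrusor and interactions, with no overlap in place of the same sign), passing over predicted genes. Up to 4 leading genes per list, or others as values, were added; a few items are not reported here. Bulk replicate numbers were not treated as pairs in the values given. Same-numbered deviations correlated at 0.28, 0.38 and −0.05 and differently numbered ones at −0.50 to 0.30, which does not settle whether the samples are paired.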

Additional observations from a re-analysis of the deposited data

Results flagged for a closer look

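In 8 genes the difference between older and younger whole-bladder libraries was not the same in members as in other fibroblasts, by the edgeR interaction test; DESeq2 called 0 of 10598 genes (110 at an unadjusted p under 0.05), so 0 of the 8 passed with it. Col6a3 (2.22, SE 0.47, adjusted p = 0.00446) is described above. Retnla, which encodes a secreted resistin-like protein, had an interaction of 4.35 (SE 0.64, adjusted p = 9.11e-08): members stood at 460, 8.33, 0 and 17.1 CPM at 22, 3, 12 and 24 months and other fibroblasts at 112, 47.3, 69.2 and 22.4 CPM. Ramp1, a co-receptor for calcitonin gene-related peptide, had 2.86 (SE 0.46, adjusted p = 3.06e-06), with 354, 128, 0 and 62.9 CPM in members against 80.5, 315, 75.2 and 70.3 CPM. For Retnla and Ramp1 members lay above other fibroblasts only at 22 months, and below them at 3, 12 and 24 months. Their 0 at 12 months allows up to 45.6 CPM, the level of 3 UMIs in its 12 members. The predicted gene 6330403K07Rik had 2.25 (SE 0.49, adjusted p = 0.00947) and Spon2, which encodes a secreted matrix protein, 1.66 (SE 0.40, adjusted p = 0.0458). Dmkn had −3.62 (SE 0.68, adjusted p = 0.000365), with 1.52, 35.0, 61.9 and 22.9 CPM in members. Upk3b had −3.23 (SE 0.62, adjusted p = 0.000781), and its highest member value, 387 CPM, came from the 12 members of the 12-month library. Cdo1, a cysteine dioxygenase gene, had −2.04 (SE 0.49, adjusted p = 0.0458).

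In 5 genes the difference between detrusor and whole-bladder libraries was not the same in members as in other fibroblasts. Actg2 had 3.58 (SE 0.39, adjusted p = 3.06e-05), Myh11 2.87 (SE 0.42, adjusted p = 0.00153) and Tagln 2.05 (SE 0.30, adjusted p = 0.00153), all smooth muscle genes. Actg2 and Myh11 lay under the level of 3 UMIs in members at 3, 12 and 24 months, so their whole-bladder member values are not resolved there. The heat shock genes Hspa1b and Hspa1a had 2.42 (SE 0.37, adjusted p = 0.00233) and 1.96 (SE 0.26, adjusted p = 0.000644). Hspa1a stood at 3737 and 1673 CPM in detrusor members against 2902 and 780 CPM in other detrusor fibroblasts, and at 325 to 948 against 735 to 2246 CPM in whole bladder.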

How the results depend on the processing

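Settings were changed one at a time, except that matching on depth also cut the other fibroblasts to the number of members, and the causes of the changes were not tested. Libraries are blocks of the comparisons between cell groups. With no replicate block the count of genes called was 102 in members against other fibroblasts (1022 with it), 27 against Pi16 and Mfap5 cells (1316) and 395 against Car3 and Cxcl14 cells (1139). The bulk comparison with a replicate block called 10118 genes (9798 without).

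Members against other fibroblasts gave 536 genes with ungated fibroblasts as comparison, 593 at matched depth, 211 in the mixed-sex and 0 in the detrusor libraries alone (1258 at an unadjusted p under 0.05 of edgeR; these subsets were chosen after seeing the data), and 564 at a log2 fold change of at least 1. Thinning to 2000 UMIs gave 644 genes against Pi16 and Mfap5 cells, 0 for age, 326 for detrusor and 87 for the detrusor interaction. At that depth the share difference was 10.7 points at the smallest exact permutation p, 0.0476, and the shares at 1000 UMIs are given above. DESeq2 gave 0 for age (41 unadjusted), 0 for the age interaction (110 unadjusted), 724 for detrusor and 420 for sections, and the age fit without the sex term gave 0 (47 unadjusted). No low-count filter gave 23 for age, 13 for its interaction, 2344 for detrusor, 166 for its interaction and 286 for sections. RLE size factors gave 15 for the age interaction, and the mixed-sex whole-bladder libraries alone 419 for detrusor.

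Leaving out 1 library at a time gave 391 to 1878 genes against other fibroblasts, 729 to 1314 against Pi16 and Mfap5 cells, 523 to 2538 against Car3 and Cxcl14 cells, 74 to 2576 for detrusor, 3 to 55 and 4 to 445 for the age and detrusor interactions, 8128 to 9781 in bulk and 1 to 256 in sections. The share difference ran from 1.35 to 16.8 points for detrusor and from 0.291 to 5.08 points for age. The age fit could not be fitted with a library less, for want of residual degrees of freedom.

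Signs turned for Col15a1 against ungated fibroblasts (−0.0047). With 1 library less they turned within these ranges: in bulk −0.44 to 0.21 for Msln and −0.047 to 0.16 for Rerg, and in sections −1.26 to 0.13 for Gdf10, −0.32 to 0.089 for Papss2, −0.93 to 0.067 for Msln, −0.19 to 0.51 for Col11a1, −0.40 to 0.18 for Wfdc1, −0.62 to 0.48 for Gatm, −0.14 to 0.37 for Ptgs1 and −0.082 to 0.49 for Rerg. In the male libraries 3 UMIs are 2.03 to 4.83 CPM over members, in the first 12-month library 45.6 CPM, so low genes are not resolved there.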
